A study of Mus musculus with 18 samples.

Results

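Livers of mice that ate a high-fat diet and had a running wheel (HF+Ex) were compared with livers of sedentary mice on a low-fat diet (LF), to see which differences found in sedentary high-fat mice (HF) were also present when the mice ran. The comparison used 6 of the 18 arrays of the study, the 3 HF+Ex and the 3 LF arrays, chosen by their labels alone. The 3 HF arrays gave the reference for high fat without a wheel. All mice were C57BL/6J males, an inbred laboratory strain, sampled at 62 weeks of age, with 1 mouse per array and each mouse kept in a cage of its own. From 5 weeks of age LF mice ate a diet with 10% fat without limit, and HF and HF+Ex mice ate a diet with 60% fat without limit. HF+Ex mice could also run on a wheel at will after a period with the wheel locked. The remaining groups (LF+Ex, low-fat with a wheel, and LF+CR and HF+CR, either diet with 30% calorie restriction) entered the estimate of the spread between mice. HF+Ex differed from LF in both diet and wheel, so that their parts in a difference cannot be told apart in this comparison. The fed state, the time of day at sampling, body weight and the distance run are not part of the sources that were available.

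The liver takes up fatty acids from blood and stores what it neither burns nor exports as triglyceride in lipid droplets, which are coated by proteins of the perilipin and CIDE families. In mice many liver genes also differ between the sexes, because growth hormone is released in pulses in males and more steadily in females, and the pulses, acting through the transcription factor STAT5B, keep male-biased genes on and female-biased genes off. Another system relevant here is the folding of secreted proteins in the endoplasmic reticulum, where chaperones such as BiP and GRP94 are induced together when folding demand rises.

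RNA was measured as intensity per probe set on Affymetrix arrays, and 14201 genes were bright enough to test. Differences are on the log2(intensity + 16) scale, which understates the change of dim genes, with the moderated standard error (SE) and the adjusted p of limma, and a gene passed when its adjusted p over all genes tested was under 0.05. Hepatocyte markers such as albumin were bright in every group, with summed intensities of 97311 to 101068 in HF+Ex, 96675 to 101486 in HF and 96618 to 103219 in LF, and none of the 10 measured was at background. Some single arrays stood apart from their group. Clps, which encodes a pancreatic lipase cofactor, was at 260 in LF 1 and 599 in HF+Ex 1, whereas the 7 remaining arrays of LF, HF and HF+Ex had 53.0 to 59.9. The summed signal of 11 pancreatic markers was 3816 in LF 1 and 6360 in HF+Ex 1, compared with 1433 to 1909 elsewhere. Skeletal muscle markers summed to 2906 on HF+Ex 2 against 774 to 986. HF 1 and HF+Ex 3 lay far from the others on the first principal component (scores 21.1 and 19.1, LF arrays -7.92 to -6.28). A tissue sample holds many cell types, and fewer cells of a type and less RNA per cell cannot be told apart.

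In HF+Ex livers 75 genes differed from LF, 59 higher and 16 lower, which is 0.528% of the genes tested. The median difference was 0.46 among those that rose and -0.51 among those that fell (all genes, -0.03), and 9 rose and 2 fell by more than 1 on the log2 scale. All 75 had arrays that did not overlap between the groups, as did 21.6% of all genes tested. The largest rises were in Cyp2b9, a cytochrome P450 gene of the female-typical liver, and in Cidea, a lipid droplet gene, and the largest falls were in Hsd3b5 and Slco1a1, both male-biased genes. After centring of the array medians 85 genes passed as higher and 11 as lower, and after quantile normalization 50 passed as higher and 24 as lower.

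**Figure D1:**
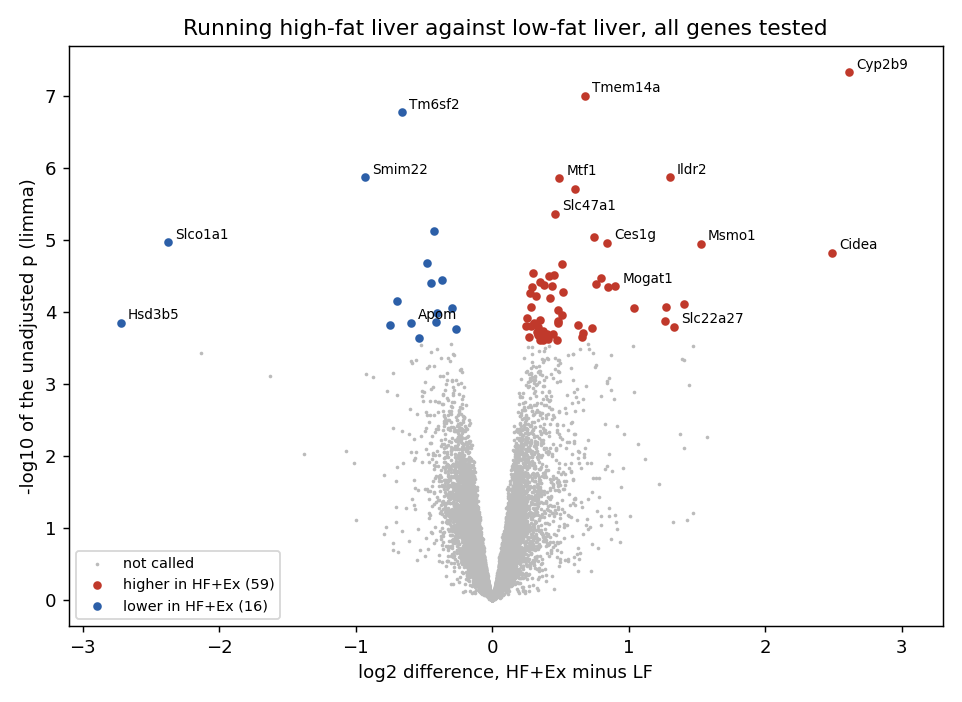
Log2 difference between HF+Ex and LF (x axis) against -log10 of the unadjusted limma p (y axis) for each of the 14201 genes tested. The 59 genes that passed as higher (red) and the 16 as lower (blue) stand apart from the genes that did not pass (grey), and Cyp2b9 and Cidea lie farthest to the right, Hsd3b5 and Slco1a1 farthest to the left.

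In sedentary HF livers 127 genes differed from LF (0.894% of those tested, 89 higher and 38 lower). Of these, 53 also passed in HF+Ex in the same direction, 43 higher and 10 lower, and 74 did not pass in HF+Ex. None of the 74 had the opposite sign in HF+Ex, and 30 of them had an adjusted p under 0.1 there. The 46 of them that were higher had medians of 0.53 in HF and 0.40 in HF+Ex, and the 28 that were lower had medians of -0.61 and -0.31. These genes were picked for passing in HF and not in HF+Ex, which by itself favours smaller medians in HF+Ex. The medians therefore cannot show whether the differences were weaker in running mice. Another 22 genes passed in HF+Ex and not in HF. Both comparisons use the same LF arrays, and a gene that passed in one and not in the other is not thereby shown to differ between HF+Ex and HF. The direct comparison of HF+Ex with HF called 0 genes in limma, with 348 (2.45% of those tested) at an unadjusted p under 0.05. Its arrays did not overlap in 8.12% of genes. No difference between the runners and the sedentary high-fat mice given below passed over all genes, and most are stated with a 95% interval. That interval included 0 for Fasn, Pparg, Lifr, Cyp2b13, Fabp5 and Lgals1, which passed in HF and not in HF+Ex.

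The largest single rise was in the female-biased gene Cyp2b9. It read 189, 432 and 227 on the LF arrays, 1565, 1966 and 1925 on the HF arrays and 1998, 1713 and 1448 on the HF+Ex arrays. Every high-fat mouse, running or not, lay far above the highest LF mouse. The difference between HF+Ex and LF was 2.61 (SE 0.27, adjusted p = 0.000664), that between HF and LF 2.70, and that between HF+Ex and HF -0.09 (95% interval -0.65 to 0.48). Cyp2b9 was the only gene among those named here that passed in HF+Ex against LF in all 23 alternative analyses. On the low-fat diet with a wheel (LF+Ex) it read 68.8, 73.2 and 101, below each LF array. Its neighbour Cyp2b13, also a female-typical P450 gene, read 77.3, 80.0 and 71.3 in LF, which is at background, 250, 539 and 300 in HF and 228, 202 and 257 in HF+Ex. The groups did not overlap, but its difference of 1.41 (SE 0.32, and 1.57 and 1.06 with offsets of 1 and 64) did not pass (adjusted p = 0.0597), whereas that in HF did (1.97).

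The pair is shown because both were higher on the high-fat diet with and without the wheel and their upstream sequences are nearly the same. The 250 bases before the RefSeq start of each gene (mouse build GRCm38.p6, plus strand, chr7:26173159-26173408 for Cyp2b9 and chr7:26061245-26061494 for Cyp2b13) were identical at 99.2% of positions. Capitals mark the 2 positions that differ, T48C and C104T, counted from the 5′ end of the window and written with the Cyp2b9 base first.
Cyp2b9: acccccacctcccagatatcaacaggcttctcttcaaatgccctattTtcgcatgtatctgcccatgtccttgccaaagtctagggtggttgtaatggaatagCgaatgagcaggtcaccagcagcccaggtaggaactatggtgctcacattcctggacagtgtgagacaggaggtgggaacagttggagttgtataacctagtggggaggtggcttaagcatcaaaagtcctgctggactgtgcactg
Cyp2b13: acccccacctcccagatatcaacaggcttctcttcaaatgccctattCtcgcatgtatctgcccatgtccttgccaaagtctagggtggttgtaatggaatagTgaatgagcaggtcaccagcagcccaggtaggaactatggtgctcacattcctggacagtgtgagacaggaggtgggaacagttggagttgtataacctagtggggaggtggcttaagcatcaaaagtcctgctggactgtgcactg
Transcripts of such close relatives can share probe sequence, which was not examined, so that the split of signal between the Cyp2b genes is uncertain.

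Slc22a27, an organic anion transporter gene of the female-typical liver, read 291, 144 and 117 in LF, 420, 736 and 581 in HF and 541, 382 and 456 in HF+Ex. It rose by 1.33 (SE 0.27, adjusted p = 0.0407) in HF+Ex and by 1.63 in HF, and the lowest high-fat array lay above the highest LF array. Atp6v0d2, a subunit gene of the vacuolar proton pump, rose by 0.40 (128, 139 and 142 in LF against 181, 179 and 194 in HF+Ex) and by 0.38 in HF. Of the 20 female-biased genes tested, these 2 and Cyp2b9 rose in HF+Ex and none fell, beside 0.415% of all genes that rose. Among the 20, 16 differences were above 0 and the median was 0.36, against a median of -0.03 over all genes. Cyp2b10, the relative induced by xenobiotics, read 387 on HF+Ex 1 and 138 and 149 on the other HF+Ex arrays, against 72.1 to 121 in LF, and did not pass (1.07, adjusted p = 0.172). The calls for Slc22a27 and Atp6v0d2 were fragile. Slc22a27 lost its call without LF 2, LF 3 or any HF+Ex array (1.09 to 1.46), and Atp6v0d2 in each of the 6 fits that left out 1 LF or HF+Ex array (0.36 to 0.43).

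A pair of male-biased genes fell in HF+Ex. Slco1a1, which encodes an organic anion uptake transporter, read 1302, 1163 and 2103 in LF, 110, 118 and 103 in HF and 311, 577 and 105 in HF+Ex. The running mice spread widely, with HF+Ex 3 at the HF level and HF+Ex 2 well above it, and none reached LF. The Slco1a1 difference from LF was -2.38 (SE 0.37, adjusted p = 0.0124) in HF+Ex and -3.56 in HF, and HF+Ex lay above HF by 1.18 (95% interval 0.39 to 1.98). A second probe set gave -2.17 in HF+Ex and -3.04 in HF. Hsd3b5, a steroid dehydrogenase gene expressed in adult male liver, read 243, 884 and 1936 in LF, 73.1, 75.3 and 70.2 in HF and 79.9, 160 and 77.8 in HF+Ex. Its difference was -2.72 in HF+Ex (SE 0.55, adjusted p = 0.0402, and -2.89 and -2.33 with offsets of 1 and 64) and -3.11 in HF, where its mean was at background. Its LF values spread widely, with LF 1 the lowest. Slco1a1 did not pass without LF 3 (-2.12), and Hsd3b5 did not pass without LF 2, LF 3, HF+Ex 1 or HF+Ex 3 (-2.61 to -2.05).

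Other male-biased genes had passed in HF and did not pass in HF+Ex. Egfr, the epidermal growth factor receptor gene, is abundant in male liver. It read 1802, 1927 and 1421 in LF, 372, 456 and 692 in HF and 1149, 1830 and 1161 in HF+Ex. Each running mouse lay above each HF mouse, and the running and LF groups overlapped. The difference from LF was -0.33 (SE 0.34, adjusted p = 0.637) in HF+Ex and -1.76 in HF, and HF+Ex lay above HF by 1.43 (95% interval 0.71 to 2.15). Its 5 other bright probe sets varied. Their differences in HF+Ex and in HF were -0.215 and -1.559, -0.193 and -0.900, -0.761 and -1.200, -0.198 and -0.313, and -0.145 and -0.155. C8b, a complement component gene, read 928, 1315 and 1509 in LF, 471, 553 and 537 in HF and 904, 886 and 572 in HF+Ex (-0.66, adjusted p = 0.145, against -1.21 in HF; HF+Ex minus HF 0.56, 95% interval 0.13 to 0.98). Elovl3, a fatty acid elongase gene, read 931, 2251 and 594 in HF+Ex, all below the lowest LF array (2485), and passed in neither comparison (-1.38 and -1.49). Of the 20 male-biased genes tested, 2 fell in HF+Ex and 5 fell in HF, with medians of -0.22 and -0.53. Over all genes tested 0.113% fell in HF+Ex and 0.268% in HF. The interval of HF+Ex minus HF lay above 0 for 8 of the 20 and below 0 for none, beside 2.45% of all genes in either direction.

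Genes of growth hormone signalling itself did not pass in HF+Ex. Socs2, which encodes a feedback inhibitor of the growth hormone receptor, read 856, 425 and 624 in LF, 115, 260 and 106 in HF and 325, 247 and 279 in HF+Ex. All running mice lay below all LF mice, and the difference of -1.07 (SE 0.36) did not pass (adjusted p = 0.188), while that of -1.93 in HF did (HF+Ex minus HF 0.86, 95% interval 0.10 to 1.62). Lifr, the leukaemia inhibitory factor receptor gene, read 793, 941 and 444 in HF+Ex against 894 to 1309 in LF (-0.70, adjusted p = 0.225) and 389 to 625 in HF (-1.15). Another bright Lifr probe set gave 0.11 in HF+Ex and -0.40 in HF. Igf1, the main hormone made by liver under growth hormone, read 4107, 4289 and 3724 in HF+Ex and 4430 to 4500 in LF, a difference of -0.15 that did not pass (adjusted p = 0.438). Other bright Igf1 probe sets gave 0.20, -0.05 and -0.03 in HF+Ex, against -0.20, -0.39 and -0.36 in HF. Igfbp2, a binding protein of that hormone, read 1995, 2680 and 1468 in HF+Ex and 2922 to 3757 in LF (-0.77, adjusted p = 0.0882). Of the 18 growth hormone and IGF1 genes tested none passed in HF+Ex, with a median of -0.14, and the interval of HF+Ex minus HF excluded 0 for 1 of them, Socs2. Lepr, the leptin receptor gene, had differences of -1.63 in HF+Ex and -1.66 in HF, and Igfbp2 of -0.77 and -0.85. The STAT motif TTCNNNGAA, searched on both strands, was present in 7.02% of all 32851 windows of 250 bases before a gene start. It was present in 3 of 49 genes that rose and had a window (6.12%), and in 2 of 14 that fell (14.3%). A gene counted if any of its windows matched, whereas the share over all counts single windows.

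**Figure D2:**
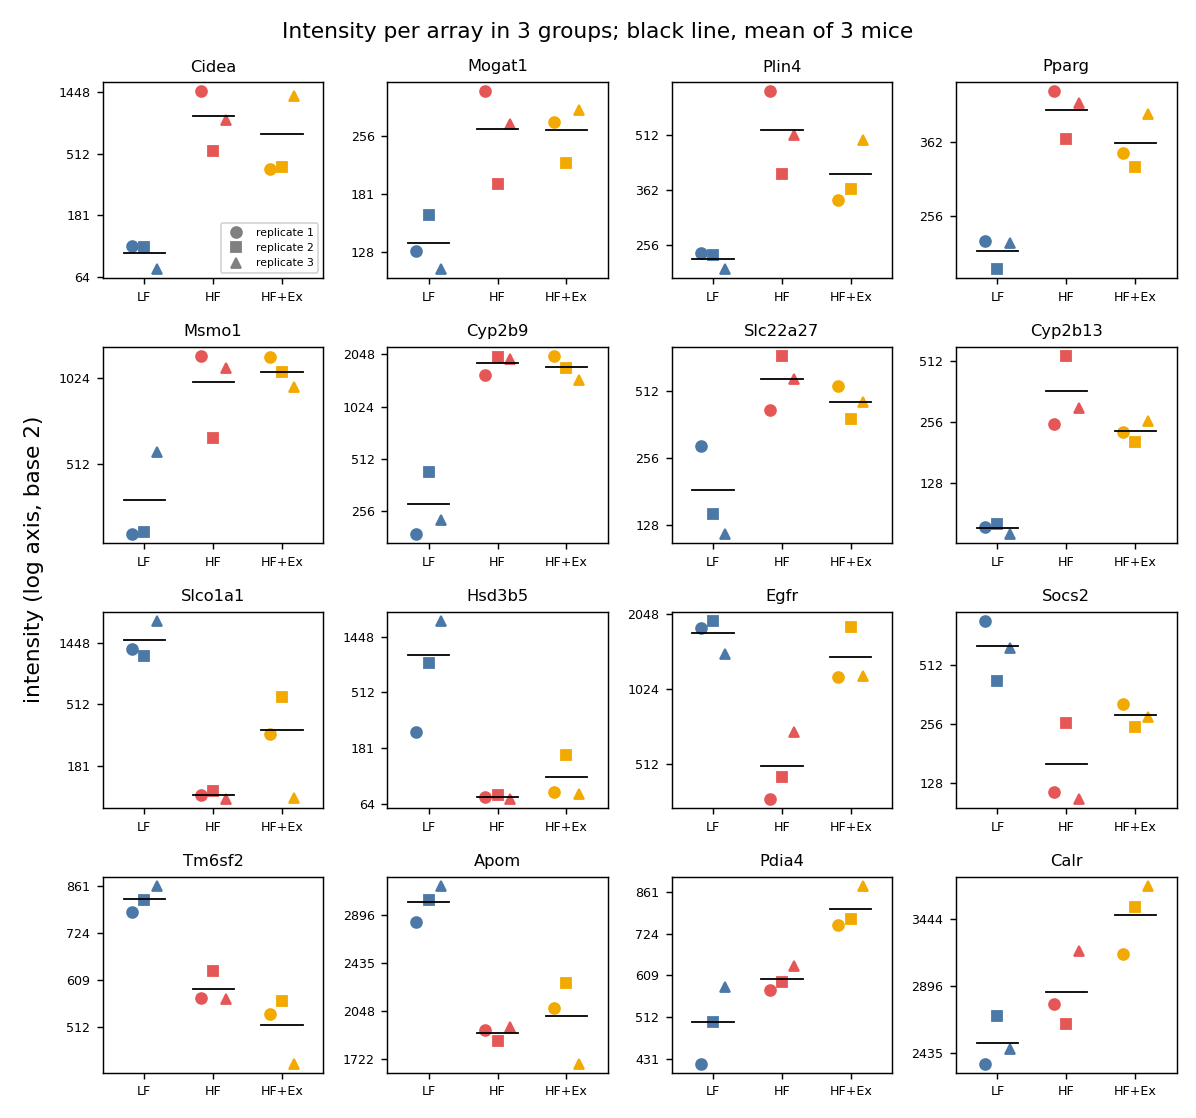
Intensity on each array (y axis, log scale, base 2, its range set per gene) for 16 genes in LF, HF and HF+Ex, with 1 symbol per mouse and the mean of 3 mice as a black line. Cyp2b9 and Msmo1 sit at the same height in HF and HF+Ex, Egfr in HF+Ex sits nearer to LF than to HF, and Pdia4 and Calr are highest in HF+Ex.

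Among genes of fat storage, Cidea and Mogat1 rose in running high-fat livers. Cidea, which promotes the growth of lipid droplets and is scarce in lean liver, read 108, 107 and 72.7 in LF, with a mean at background, 1479, 536 and 904 in HF and 394, 409 and 1361 in HF+Ex. HF+Ex 1 and HF+Ex 2 lay below every HF mouse, and HF+Ex 3 lay within their range. Cidea rose by 2.49 (SE 0.40, adjusted p = 0.0153, and 2.67 and 2.09 with offsets of 1 and 64) in HF+Ex and by 3.05 in HF, and HF+Ex minus HF was -0.55 (95% interval -1.41 to 0.30). It did not pass without LF 3 (2.33). Mogat1, which encodes an enzyme of triglyceride synthesis, read 129, 160 and 115 in LF, 336, 192 and 275 in HF and 279, 218 and 301 in HF+Ex. Its rise of 0.90 (SE 0.16, adjusted p = 0.0221) was close to that in HF (0.89), and it did not pass without LF 1, LF 3, HF+Ex 1 or HF+Ex 3 (0.81 to 0.88).

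Plin4, a droplet coat gene, read 244, 241 and 220 in LF, 674, 401 and 512 in HF and 340, 364 and 495 in HF+Ex. It did not overlap LF in either group, passed in HF (1.09) and missed the threshold in HF+Ex (0.71, SE 0.16, adjusted p = 0.0541), and HF+Ex minus HF was -0.38 (95% interval -0.71 to -0.05). Pparg, the transcription factor gene of fat storage, read 345, 322 and 415 in HF+Ex and 199 to 227 in LF (0.69, adjusted p = 0.0803), and passed in HF (0.91). Cidec, a droplet fusion gene, read 247, 188 and 618 in HF+Ex and 93.5 to 120 in LF (1.44, adjusted p = 0.0794). Cd36, a fatty acid transporter gene, read 2003, 1954 and 2718 in HF+Ex and 1475 to 1698 in LF (0.48, adjusted p = 0.24). Plin2, the main droplet coat of hepatocytes, had a difference of -0.05 (SE 0.16). Fabp5, a fatty acid binding protein gene, was lower in running mice at 269, 198 and 566 against 638, 1935 and 2339 in LF. Its difference of -2.13 (SE 0.47, adjusted p = 0.0573) was near that in HF, which passed (-2.17). Of the 20 lipid droplet genes 1 rose in HF+Ex and 2 rose in HF, with a median of 0.01 in HF+Ex. Of the 17 genes of PPAR-gamma and fatty acid uptake 1 rose in HF+Ex, which was Mogat1, with a median of 0.07. In HF 2 of the 17 rose and 1 fell. Over all genes tested 0.415% rose in HF+Ex, and in HF 0.627% rose and 0.268% fell.

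The higher values of HF+Ex 3 in several of these genes went with other features of that liver. Markers of recruited and lipid-associated macrophages, 12 in all, summed to 5942 on HF+Ex 3 against 3272 and 3351 on the other running mice, 3251 to 3991 in LF and 4170 to 6068 in HF. The 12 stellate cell and fibroblast markers summed to 9974 on HF+Ex 3 against 6575 and 6728 on the other running mice, 5554 to 6479 in LF and 6864 to 8003 in HF. Col3a1, a fibrillar collagen gene, read 1463 on HF+Ex 3 and 556 and 408 on the other running mice, against 241 to 264 in LF (1.40, adjusted p = 0.18). Lgals1, which encodes galectin-1 and is abundant in macrophages and fibroblasts, read 2566, 2148 and 3826 in HF+Ex and 731 to 1412 in LF (1.39, adjusted p = 0.0597), and passed in HF (1.51). Without HF+Ex 3 Cidea rose by 1.92 and still passed. The part of these cells in the differences was not tested.

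In cholesterol synthesis 1 gene passed. Msmo1, which encodes a sterol methyl oxidase, read 288, 294 and 561 in LF, 1228, 632 and 1112 in HF and 1216, 1075 and 954 in HF+Ex. The running mice were all above every LF mouse and showed a narrower range than HF. Msmo1 rose by 1.53 (SE 0.24, adjusted p = 0.0124) in HF+Ex and by 1.35 in HF, and did not pass without LF 1 (1.37) or HF+Ex 1 (1.44). Idi1 (601, 603 and 659 in HF+Ex, 222 to 446 in LF) and Sqle (337, 250 and 387 against 132 to 245) act in the same pathway and had differences of 1.04 and 0.85 that did not pass. Over the 17 cholesterol synthesis genes tested 1 rose in HF+Ex, beside 0.415% of all genes. Of the 17 differences 13 were above 0, and the median was 0.36 in HF+Ex and 0.28 in HF. Groups did not overlap for 10 (58.8%, against 21.6% of all genes), a share also found for genes of PPAR-gamma and fatty acid uptake (58.8%).

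Fatty acid synthesis genes did not pass in running mice. Fasn, which encodes fatty acid synthase, read 778, 816 and 1179 in HF+Ex, 550, 605 and 811 in LF and 1427, 966 and 1146 in HF. It overlapped LF in HF+Ex (0.48, adjusted p = 0.254) and passed narrowly in HF (0.83, adjusted p = 0.0493). The HF call of Fasn held in 8 of the 23 alternative analyses. Srebf1, the transcription factor gene that drives it, read 1024, 910 and 949 in HF+Ex, 583 to 924 in LF and 1209 to 1461 in HF (0.30, adjusted p = 0.478; HF+Ex minus HF -0.44, 95% interval -0.86 to -0.03). Scd1, the stearoyl-CoA desaturase gene, read 10462, 9057 and 13380 in HF+Ex and 14004 to 15477 in LF. It lay below every LF mouse and missed the threshold (-0.46, adjusted p = 0.0649), and passed without HF+Ex 3 (-0.62). Acly and Elovl6, neighbours of Fasn in the pathway, had differences of 0.06 and -0.32. Of 18 genes of fatty acid synthesis and its regulators 0 passed in HF+Ex and 2 rose in HF, with medians of 0.04 and 0.07. Over all genes tested 0.528% passed in HF+Ex and 0.627% rose in HF.

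Among genes of apolipoproteins and lipoprotein assembly, Tm6sf2 and Apom fell. Tm6sf2, which is needed to load triglyceride onto very low density lipoprotein, read 784, 818 and 862 in LF, 570, 630 and 568 in HF and 537, 564 and 448 in HF+Ex. It fell by 0.66 on the log2 scale (SE 0.074, adjusted p = 0.000801) in running mice, with -0.47 in HF, and HF+Ex lay below HF by a log2 difference of -0.19 (95% interval -0.35 to -0.03). Its call held without each LF or HF+Ex array in turn (-0.72 to -0.56). Apom, an apolipoprotein of high density lipoprotein, read 2823, 3057 and 3218 in LF, 1910, 1839 and 1928 in HF and 2072, 2267 and 1689 in HF+Ex. It fell by 0.60 on the log2 scale (SE 0.12, adjusted p = 0.0402) in HF+Ex, with -0.67 in HF, a second probe set gave -0.66, and it did not pass without LF 1, LF 2, LF 3, HF+Ex 1 or HF+Ex 3 (-0.65 to -0.48). The other 14 of the 16 genes of apolipoproteins and lipoprotein assembly did not pass, and the median of the list was -0.05. Over all genes tested 0.113% fell in HF+Ex. Among them Apob had differences above 0 (0.599 in HF+Ex and 0.515 in HF), and Mttp had -0.126 in HF+Ex. Ildr2, a membrane protein gene linked to liver lipid levels, rose by 1.30 in both comparisons (314, 329 and 226 in LF, 583, 967 and 682 in HF, 823, 683 and 685 in HF+Ex, adjusted p = 0.00328), and a second bright probe set gave 1.14 in each.

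**Figure D3:**
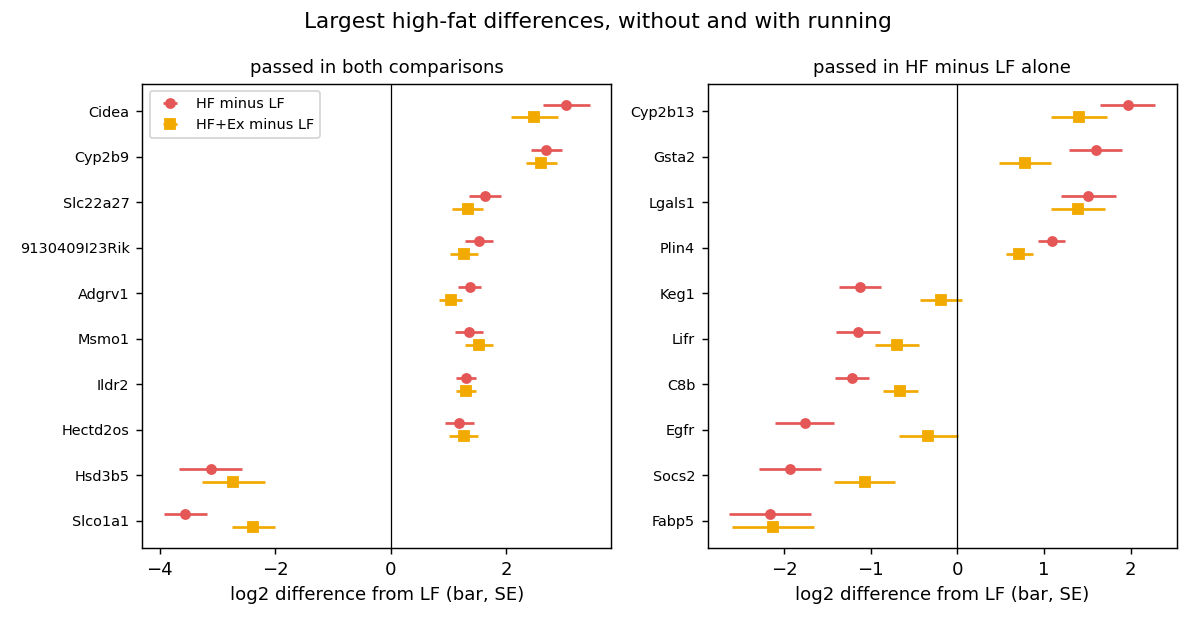
Log2 differences from LF (x axis, bars are SE) in HF (red circles) and HF+Ex (yellow squares), for the 10 largest HF differences that also passed in HF+Ex (left) and the 10 largest that did not (right). On the left Cyp2b9, Ildr2 and Hectd2os lie at nearly the same place in both, and on the right Egfr and Keg1 in HF+Ex lie near 0, while Fabp5 and Lgals1 lie beside their HF values.

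Of the 10 largest sedentary differences that did not pass in running mice, Keg1 and Gsta2 remain to be described. The HF calls of these 10 genes were not equally firm. They held in 11 (Keg1 and Fabp5) to 22 (C8b, Plin4 and Cyp2b13) of the 23 alternative analyses, with 12 for Lifr. Keg1, a gene of the glycine acyltransferase family, read 1951, 1786 and 1529 in HF+Ex, which overlapped LF (1824, 2067 and 2090) and lay wholly above HF (675, 1206 and 914). Its difference from LF was -0.19 (adjusted p = 0.717) against -1.12 in HF, and HF+Ex minus HF was 0.93 (95% interval 0.42 to 1.45). Gsta2, a glutathione transferase gene, read 1200, 1145 and 1666 in HF+Ex, between LF (1013, 796 and 545) and HF (2183, 2565 and 2270). Neither pair of groups overlapped, the difference from LF was 0.78 (adjusted p = 0.249) against 1.60 in HF, and HF+Ex minus HF was -0.82 (95% interval -1.46 to -0.17).

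Some endoplasmic reticulum chaperone genes passed in running mice and not in HF. Hsp90b1, which encodes GRP94, read 3067, 3147 and 3546 in LF, 3536, 3381 and 3863 in HF and 4082, 4142 and 4557 in HF+Ex. Calr, the calcium-binding chaperone calreticulin, read 2366, 2678 and 2458 in LF, 2763, 2626 and 3173 in HF and 3150, 3554 and 3759 in HF+Ex. Pdia4, a protein disulfide isomerase, read 421, 502 and 580 in LF, 574, 593 and 632 in HF and 750, 769 and 884 in HF+Ex. For Hsp90b1 and Pdia4 each running mouse exceeded each LF and each HF mouse, and for Calr HF+Ex 1 lay just under HF 3. Hsp90b1 rose by 0.39 (SE 0.081, adjusted p = 0.0454), Calr by 0.48 (SE 0.10, adjusted p = 0.047) and Pdia4 by 0.67 (SE 0.14, adjusted p = 0.0441), against 0.14, 0.19 and 0.26 in HF, where none passed. HF+Ex minus HF was 0.25 (95% interval 0.07 to 0.42) for Hsp90b1, 0.29 (0.07 to 0.50) for Calr and 0.41 (0.11 to 0.70) for Pdia4.

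Of the 26 chaperone and unfolded protein response genes tested, these 3 rose, beside 0.415% of all genes. Among the 26, 24 had differences above 0, and 15 (57.7%) had groups that did not overlap, against 21.6% of all genes. Such a share was not particular to this list. It was 53.8% for oxidative phosphorylation genes, 58.8% for genes of PPAR-gamma and fatty acid uptake, and 0% for heat shock genes. The median was 0.36 in HF+Ex and 0.06 in HF. Creld2, a gene of the stress response of this compartment, had the largest difference and did not pass. It read 509, 709 and 731 in LF, 614, 558 and 631 in HF and 1044, 1175 and 1317 in HF+Ex (0.85, SE 0.21, adjusted p = 0.0735; HF+Ex minus HF 0.95, 95% interval 0.51 to 1.39). Hspa5, which encodes BiP, read 4954, 6114 and 6422 in HF+Ex and 3557 to 4486 in LF (0.55, adjusted p = 0.0928). Other bright Hspa5 probe sets gave 0.58 and, for a dimmer one, 0.10. Manf, Syvn1 and Sdf2l1 had differences of 0.63, 0.63 and 0.61 that did not pass. Sensors and transcription factors of the response varied, and none passed. Eif2ak3, which encodes the sensor PERK, had a difference of 0.52 and the factor gene Ddit3 one of 0.29, while Xbp1 was at 0.10, Atf4 at 0.05, Ern1 at -0.12 and Atf6 at -0.19. The interval of HF+Ex minus HF lay above 0 in 12 of the 26 genes and below 0 in none, beside 2.45% of all genes in either direction.

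**Figure D4:**
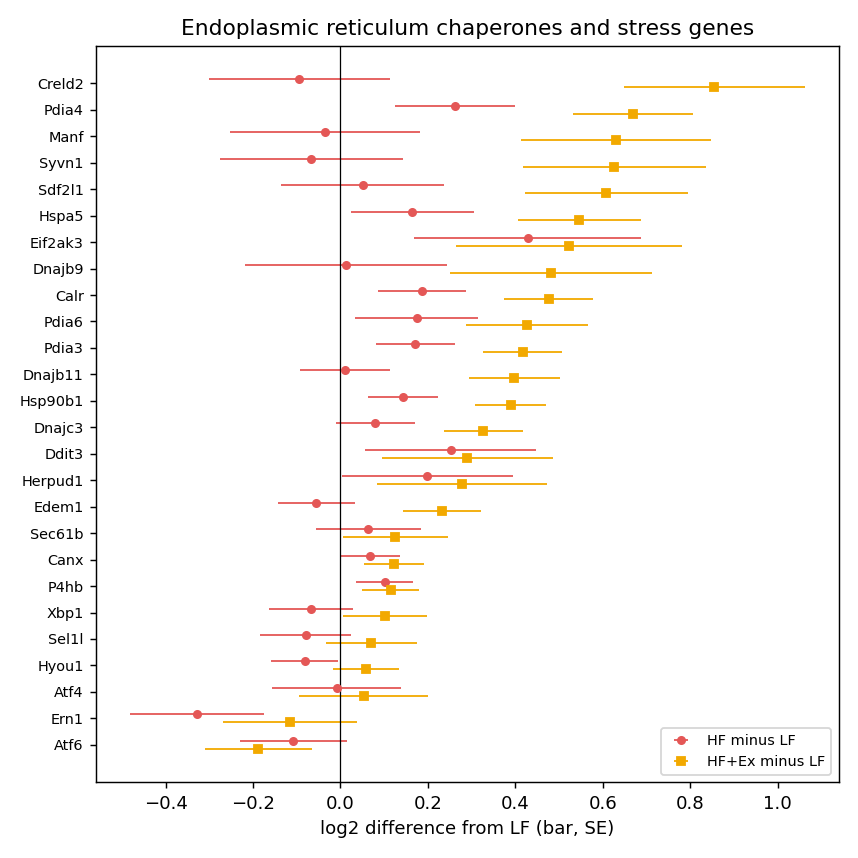
Log2 difference from LF (x axis, bars are SE) of each of the 26 chaperone and unfolded protein response genes in HF (red circles) and HF+Ex (yellow squares), ordered by the HF+Ex value. The HF+Ex values lie right of 0 for 24 genes, with Creld2 highest at 0.85, while the HF values scatter around their median of 0.06.

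The chaperone calls were marginal. Each of the 3 was lost in all 6 fits that left out 1 LF or HF+Ex array, with values of 0.34 to 0.45 for Hsp90b1, 0.42 to 0.55 for Calr and 0.55 to 0.78 for Pdia4. Other probe sets gave 0.45 for Hsp90b1 and 0.45 and 0.46 for Calr, whereas a dimmer one of Pdia4 gave 0.06. Pancreatic markers were high on HF+Ex 1 and LF 1, and their part in these differences was not tested. Without the 4 arrays of the study with pancreatic transcripts the differences were 0.38 for Hsp90b1, 0.51 for Calr and 0.60 for Pdia4, none of which passed. The 20 heat shock genes tested, of the cytosol and mitochondria, had a median of 0.12 in HF+Ex and -0.04 in HF, and none passed. Their interval of HF+Ex minus HF also lay above 0 in 6 of 20 and below 0 in none, with Hsph1 at 0.78 and Hsp90aa1 at 0.33.

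The promoters of chaperone genes are shown because they are known to share the endoplasmic reticulum stress element, a bipartite site of the form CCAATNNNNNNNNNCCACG. On both strands it was found in 37 of 32851 windows (0.113%), and in 8 of the 23 listed genes that had a window (34.8%). The first share counts single windows, and the second counts a gene if any of its windows matched. The windows below are the 250 bases before the RefSeq start (build GRCm38.p6), with each match in capitals, for Hsp90b1 (chr10:86705445-86705694, minus strand), Calr (chr8:84846932-84847181, minus strand), Hspa5 (chr2:34771840-34772089, plus strand) and Creld2 (chr15:88819396-88819645, plus strand).
Hsp90b1: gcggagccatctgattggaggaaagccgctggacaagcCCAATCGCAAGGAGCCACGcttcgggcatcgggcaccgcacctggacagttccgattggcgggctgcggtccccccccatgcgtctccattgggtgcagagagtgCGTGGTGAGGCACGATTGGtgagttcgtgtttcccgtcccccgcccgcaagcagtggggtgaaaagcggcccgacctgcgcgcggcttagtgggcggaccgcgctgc
Calr: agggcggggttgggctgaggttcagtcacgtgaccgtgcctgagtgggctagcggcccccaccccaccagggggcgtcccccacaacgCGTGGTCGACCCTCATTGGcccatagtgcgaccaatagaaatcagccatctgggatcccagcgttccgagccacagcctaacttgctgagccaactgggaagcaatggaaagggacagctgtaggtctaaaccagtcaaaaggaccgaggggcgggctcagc
Hspa5: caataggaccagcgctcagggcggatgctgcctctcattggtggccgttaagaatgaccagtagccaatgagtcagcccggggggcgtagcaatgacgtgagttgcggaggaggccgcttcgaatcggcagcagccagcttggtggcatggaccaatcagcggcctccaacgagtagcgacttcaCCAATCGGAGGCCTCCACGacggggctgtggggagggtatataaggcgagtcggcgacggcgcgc
Creld2: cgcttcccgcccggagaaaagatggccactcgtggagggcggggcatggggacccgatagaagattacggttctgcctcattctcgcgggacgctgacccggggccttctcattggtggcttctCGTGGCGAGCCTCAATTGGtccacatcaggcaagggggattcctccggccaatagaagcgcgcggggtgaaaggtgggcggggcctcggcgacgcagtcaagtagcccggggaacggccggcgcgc
Hsp90b1 carried a pair of matches, beginning 212 and 107 bases before the start, the latter on the opposite strand. Calr and Creld2 carried 1 each on the opposite strand, 162 and 126 bases before it, and Hspa5 carried 1, 65 bases before it. The Pdia4 window held no match. Among genes that rose in HF+Ex, 2 of 49 with a window held the element (Calr and Hsp90b1), and none of the 14 that fell did. A match describes the letters only.

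Several enzymes of mitochondrial and amino acid metabolism rose by small amounts with little spread. Glul, the glutamine synthetase of pericentral hepatocytes, read 3974, 4123 and 3800 in LF, 4867, 5295 and 4967 in HF and 4900, 4756 and 4794 in HF+Ex. It rose by 0.28 (SE 0.051, adjusted p = 0.0252) and by 0.35 in HF, and did not pass without LF 1, LF 3 or any HF+Ex array (0.25 to 0.29). Uqcrc2, a core subunit gene of respiratory complex III, read 2299, 2192 and 2364 in LF and 2887, 2648 and 3130 in HF+Ex. It rose by 0.33 (SE 0.068, adjusted p = 0.0408) and did not pass in HF (0.21), nor without LF 1, LF 2, LF 3, HF+Ex 1 or HF+Ex 3 (0.27 to 0.36), and a second probe set gave 0.10. It was the only 1 of 26 oxidative phosphorylation genes to pass, beside 0.528% of all genes, and their median was -0.03. Groups did not overlap in 14 of the 26 (53.8%), against 21.6% of all genes.

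Some genes of branched-chain amino acid breakdown were among the rises, and this group was noticed and listed after the values had been seen. Mccc1 and Mccc2, the subunit genes of methylcrotonyl-CoA carboxylase in leucine breakdown, rose by 0.38 (609, 661 and 639 in LF, 870, 806 and 826 in HF+Ex, adjusted p = 0.0221) and 0.48 (634, 863 and 779 in LF, 1108, 1022 and 1042 in HF+Ex, adjusted p = 0.0402). Aldh6a1, which acts in valine breakdown, rose by 0.30 (3319, 3086 and 3359 in LF, 4031, 4103 and 3859 in HF+Ex, adjusted p = 0.0221). In each case no HF+Ex array overlapped an LF array. Mccc1 did not pass without LF 1, LF 3, HF+Ex 1 or HF+Ex 3 (0.35 to 0.39), Mccc2 without LF 1, LF 3 or any HF+Ex array (0.36 to 0.50), and Aldh6a1 without LF 1, LF 3, HF+Ex 1 or HF+Ex 2 (0.28 to 0.32). In HF the differences were 0.37, 0.33 and 0.27, of which Mccc2 did not pass. Of 21 genes of this pathway tested, 3 rose in HF+Ex and 17 had differences above 0, with medians of 0.20 in HF+Ex and 0.13 in HF. Over all genes tested 0.415% rose in HF+Ex, and the median difference was -0.03. Other mitochondrial genes that rose, also picked after their values were seen, were Agxt2 (0.75), an aminotransferase, Gcdh (0.34), which acts in lysine breakdown, Suclg2 (0.30), a citric acid cycle subunit, and Mpc1 (0.26), a pyruvate carrier subunit. Their HF differences were 0.73, 0.36, 0.35 and 0.25. Gcdh and Mpc1 did not pass without any 1 of the 6 arrays (0.27 to 0.37 and 0.23 to 0.28), Agxt2 without LF 1 or HF+Ex 3 (0.66 to 0.69), and Suclg2 without LF 1, LF 3, HF+Ex 1 or HF+Ex 3 (0.25 to 0.31).

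Most other genes with large differences in HF+Ex belonged to no list. Among rises shared with HF were Adgrv1, an adhesion receptor gene (115, 136 and 133 in LF, 215, 241 and 416 in HF+Ex, difference 1.04, HF 1.37), and the uncharacterised transcripts 9130409I23Rik (1.28, HF 1.53) and Hectd2os (1.27, HF 1.19). Adgrv1 lost its call without LF 1, LF 2, LF 3 or HF+Ex 3 (0.76 to 1.08), and its other probe set gave -0.07. 9130409I23Rik and Hectd2os each lost theirs without LF 1, LF 3 or any HF+Ex array (1.16 to 1.36 and 0.99 to 1.43). Among falls shared with HF were Smim22, a small membrane protein gene (460, 486 and 389 in LF, 210, 199 and 271 in HF+Ex, difference -0.93, adjusted p = 0.00328), Ankrd9 (-0.70), Rflna (-0.48) and Zbtb42 (-0.45). Smim22 passed in each fit without 1 LF or HF+Ex array, and other probe sets of Smim22 and Rflna gave -0.11 and -0.05. Ankrd9 and Zbtb42 did not pass without LF 1, LF 3 or any HF+Ex array (-0.76 to -0.64 and -0.47 to -0.38), and Rflna did not pass without LF 1, LF 3, HF+Ex 1 or HF+Ex 2 (-0.49 to -0.43).

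Of the 22 genes that passed in HF+Ex and not in HF, 16 rose and 6 fell. Mtf1, the metal-responsive transcription factor gene, read 214, 194 and 201 in LF, 252, 223 and 269 in HF and 291, 280 and 305 in HF+Ex. It rose by 0.49 (SE 0.065, adjusted p = 0.00328) and lay above HF by 0.22 (95% interval 0.09 to 0.36), but its other bright probe sets gave 0.05 and -0.13. Tmem141, a membrane protein gene, read 492, 474 and 469 in LF, 449, 410 and 369 in HF and 298, 338 and 341 in HF+Ex. It fell by 0.54 on the log2 scale (SE 0.11, adjusted p = 0.0455), and HF+Ex minus HF was -0.31 (95% interval -0.55 to -0.08). Retreg3, a receptor gene for selective autophagy of the endoplasmic reticulum, rose by 0.73 (387, 309 and 412 in LF, 616, 608 and 631 in HF+Ex), with 0.60 in HF, and its other bright probe set gave 0.17.

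The next 6 genes of this class differed from LF in the same direction in HF. C730036E19Rik, an uncharacterised transcript, rose by 1.41 (277, 315 and 340 in LF, 973, 789 and 795 in HF+Ex; HF 1.12). Wnt5b, a secreted signalling protein gene, rose by 0.76 (HF 0.48), Ces2g, a carboxylesterase gene, by 0.66 (HF 0.54), Plce1, a phospholipase C gene, by 0.48 (HF 0.41), and Zfp979, a zinc finger gene with LF and HF means at background, by 0.51 (0.60 and 0.35 with offsets of 1 and 64; HF 0.35). Zfpm1, which encodes a partner of GATA factors, fell by 0.75 on the log2 scale (794, 629 and 715 in LF, 376, 503 and 377 in HF+Ex; HF -0.65). The interval of HF+Ex minus HF included 0 for each of these 6 and for Retreg3. Calls were lost without any 1 of the 6 arrays for C730036E19Rik (1.31 to 1.47), Retreg3 (0.61 to 0.81) and Tmem141 (-0.57 to -0.48). They were lost without LF 1, LF 3, HF+Ex 1 or HF+Ex 3 for Wnt5b (0.59 to 0.76), Plce1 (0.39 to 0.47) and Zfpm1 (-0.75 to -0.67), and also without HF+Ex 2 for Ces2g (0.54 to 0.71). For Zfp979 they were lost without LF 3, HF+Ex 1 or HF+Ex 3 (0.46 to 0.51).

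Several fasting, bile acid and inflammation genes varied between mice of the same group, and those named here did not pass. Pdk4, a fasting-induced kinase gene, read 335 on LF 1 and 89.2 and 90.3 on the other LF mice, against 105, 180 and 148 in HF+Ex (-0.00, SE 0.53). Igfbp1 read 3104 on LF 1 and 850 and 1096 on the other LF mice, against 965, 602 and 942 in HF+Ex (-0.79, adjusted p = 0.444), and Fgf21 read 533, 182 and 174 in LF (-0.34). LF 1 was thus the highest LF mouse in each of these, and without it the Pdk4 difference was 0.57. Cyp7a1, the rate-limiting enzyme gene of bile acid synthesis, read 2293, 2017 and 1388 in HF+Ex and 673, 1101 and 1299 in LF, which did not overlap (0.90, SE 0.45, adjusted p = 0.362), and Cyp8b1 of the same pathway had a difference of 0.25. Saa1 and Lcn2, acute phase genes, spread from 434 to 4202 and from 80.5 to 808 within LF alone, with differences of 1.33 and 1.43 (adjusted p = 0.392 and 0.378). Pck1, G6pc, Cyp4a14, Cpt1a and Nnmt had differences of -0.42, -0.39, -0.43, 0.11 and 0.25. For Pck1 and Cyp4a14 the HF+Ex arrays lay below all LF arrays, and another bright Pck1 probe set gave -0.75. Groups did not overlap in 21.6% of all genes. Of 40 genes taken from known liver pathways, 35 were tested, 5 passed in HF+Ex and 11 in HF, beside 0.528% and 0.894% of all genes. This set, like the gene lists, was chosen with earlier results of these data known. A share above that of all genes is therefore no independent result.

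Over 49 gene lists with 716 tested genes, 15 genes passed in HF+Ex, beside 0.528% of all genes tested, and 38 lists held none. None of the 13 lists of cell type markers had a member that passed in HF+Ex, and the 12 Kupffer cell markers had a median of -0.01 against 0.28 in HF, with sums of 7091 to 12040 in HF+Ex, 8718 to 13091 in HF and 7139 to 11764 in LF. MHC class II genes had a median of 0.43, extracellular matrix genes 0.32 and NRF2 pathway genes 0.16, with no member passing in any of them. Oxidation of fatty acids in mitochondria (median 0.04), gluconeogenesis (-0.05) and the circadian clock (-0.05) also had no member that passed.

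The number of genes called depended on single mice. It was 18 without LF 1, 70 without LF 2 and 14 without LF 3, and 12 without HF+Ex 1, 56 without HF+Ex 2 and 18 without HF+Ex 3. Of the 75 genes, 8 passed in all of these fits: Cyp2b9, Ildr2, Mtf1, Plscr2, Slc47a1, Smim22, Tm6sf2 and Tmem14a. Plscr2, a phospholipid scramblase gene, rose by 0.60 (391, 459 and 422 in LF, 677, 674 and 668 in HF, 691, 609 and 656 in HF+Ex). Slc47a1, a drug and toxin extrusion transporter gene, rose by 0.46, and Tmem14a, a small membrane protein gene, by 0.68 (155, 184 and 171 in LF, 302, 288 and 255 in HF+Ex). These 3 were named because they kept their calls. Without the 4 arrays of the study that carried pancreatic transcripts (LF 1, HF+Ex 1, LF+CR 1 and LF+Ex 3), which leaves 2 LF and 2 HF+Ex mice, 3 genes passed: Cyp2b9 (2.27), Hsd3b5 (-3.37) and Tm6sf2 (-0.72). When only the 6 LF and HF+Ex arrays were fitted 9 genes passed, and with arrays weighted by quality 379 did.

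**Figure D5:**
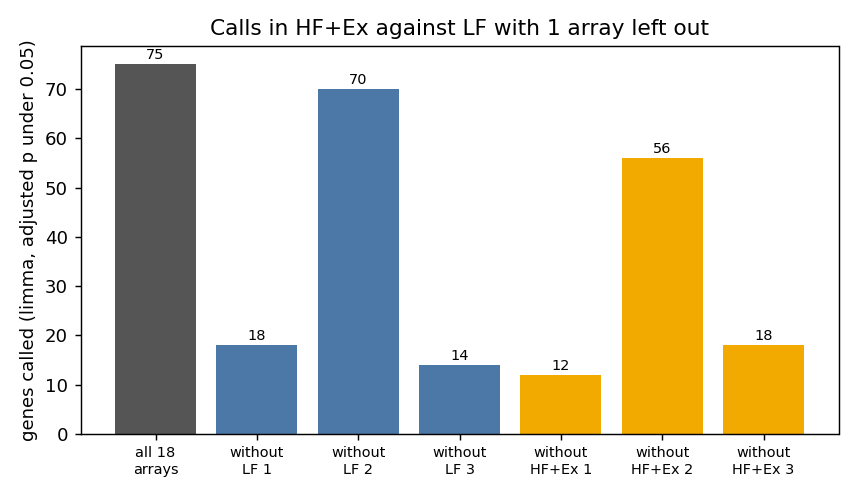
Number of genes that passed in HF+Ex against LF (y axis, from 0) with all 18 arrays and with 1 LF or HF+Ex array left out (x axis). The count of 75 with all arrays fell to between 12 and 18 without LF 1, LF 3, HF+Ex 1 or HF+Ex 3, and was 70 and 56 without LF 2 and HF+Ex 2.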

How the data were processed

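Per the labels' protocols, Trizol was used for total RNA and biotin for the cRNA, and each mouse was hybridised to its own Affymetrix array (18 mice, 6 groups). The authors deposited 1 linear intensity for every probe set (31.08 to 21653.9), with array means of 304.9 to 307.8. How they summarised and normalized them is not given in the sources used here. Between arrays, the spread of array medians was 0.15254 on the log2 scale, and log2(intensity + 16) was taken with no further scaling. Of 45037 probe sets without controls, 34945 carried 1 gene symbol in the platform annotation, 932 several (not used) and 9160 none. A gene was its probe set with the highest mean (18193 genes), tested if above the 40th percentile of an array (88.22 to 97.574, called background here) on at least 3 arrays, which left 14201 and removed 3992.

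All 18 arrays entered the limma fit (version 3.58.1, R version 4.3.3), whose design held the 6 group means and no covariate. It had 12 residual degrees of freedom and 3.64 from the prior, and the median SE of a difference was 0.0853, with Benjamini-Hochberg adjustment over all genes tested. Adjusted p in the text is limma's. The pipeline was tested on simulated data. Precision is limited by having 3 mice per group and, for dim genes, by background.

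Genes named are the 10 largest rises and falls in HF+Ex against LF, up to 4 passing members of each of 49 lists (36 pathways, 13 cell types, 821 genes, 87 of them without a usable probe set and 18 too dim), the 10 largest HF differences that did and did not pass in HF+Ex, the 10 largest that passed in HF+Ex and not in HF, and a set of 40 genes. Other genes were named after their values were seen. The members and lists were chosen with earlier results of these data known. For 35 of the 75 genes another bright probe set existed, in 9 of which all such probe sets moved under 25% as far. Upstream sequences are from RefSeq (GRCm38.p6). The alternatives covered scaling, offset, dim-gene filter, probe set choice, variance model, array weights, groups fitted, replicate block and left-out arrays.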

Additional observations from a re-analysis of the deposited data

How the results depend on the processing

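Over 23 alternatives none of the 32 genes that passed in HF+Ex and were named by the rule above changed sign. Passing genes named after their values were seen, such as Mccc1 and Plscr2, were followed only through the 6 fits without 1 LF or HF+Ex array. The number of genes called in HF+Ex against LF was 75, in HF against LF 127, and in both 53, and 15 list genes were called in HF+Ex. Counts in this order were 379, 988, 262 and 57 with array weights, 9, 60, 9 and 3 when only the compared groups were fitted, and 3, 13, 2 and 3 without the 4 arrays with pancreatic transcripts. Without LF+CR 2, HF 1 and HF+Ex 3, the 3 arrays with extreme first-component scores, the count in both was 34, and with the clock covariate (log2 Arntl minus log2 Dbp) 231 genes were called in HF. These last 3 settings were chosen after seeing the data. Leaving out 1 array gave 12 to 89 in HF+Ex, 23 to 200 in HF, 11 to 59 in both and 3 to 21 list genes. HF+Ex against HF gave 0 to 1, the 1 without HF+Ex 3, and 0 under all other settings. The other settings (quantile normalization, centred arrays, offsets of 1 and 64, no dim-gene filter or a 60th-percentile filter, averaged probe sets and a trended robust variance) gave 67 to 96 genes in HF+Ex. The cause of these shifts was not tested.

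Replicate numbers were not treated as pairs in the main fit. Residuals of same-numbered arrays correlated at -0.36 to 0.29. Arrays with different numbers were not compared, so that these values cannot settle whether the numbers pair the mice. With the replicate number as a block, 21 genes were called in HF+Ex, 72 in HF, 17 in both and 6 list genes, and the comparison of HF+Ex with HF had none.

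Values that changed sign belonged to genes that did not pass. Pdk4 was 0.027 with quantile normalization, 0.033 with centred arrays, 0.015 with offset 1, 0.14 with array weights, 0.76 without the 4 arrays and 0.33 with the clock covariate, and ran from -0.30 without LF 2 to 0.57 without LF 1. Without the 4 arrays Fgf21 was 0.41, Plin2 0.13 and Nnmt -0.11, and with the clock covariate Plin2 was 0.020. Leaving out 1 array gave -0.60 to 0.16 for Fgf21, -0.17 to 0.083 for Plin2, -0.010 to 0.54 for Nnmt and -0.029 to 0.12 for Acly. Cpt1a was -0.006 with array weights, and Acly -0.029 without the 3 arrays.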
